A study of Drosophila melanogaster with 12 samples.

Results

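The genes described are 7 markers of glial classes of the fly brain, grouped by class: alrm for astrocyte-like glia, wrapper, zyd and Cyp4g15 for cortex glia, and moody and Mdr65 for surface glia. The seventh, Msr-110, was given no class. They were found by name among the 16272 genes of the deposited table, and all 7 had a row. Of these, 6 passed the filter on low counts and were tested. Mdr65 did not pass, and wrapper passed only through its counts in glia, so its difference from glia was given by the filter.

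Sorted cells of 4 populations from optic lobes of 3-day-old Drosophila melanogaster, labelled as strain Canton-S adults, were sequenced for RNA. They were T4 neurons, a columnar type of the ON motion pathway, Pm2 neurons of the proximal medulla, glia sorted with the Repo driver and neurons sorted with the Elav driver. The last 2 were the study's controls, and each population had 3 libraries. In every population a Gal4 driver line was crossed to UAS-Red Stinger, a nuclear red fluorescent reporter, brains were dissociated, and cells were sorted by fluorescence. A sort therefore holds whatever cells the driver marks, the Elav sort can hold T4 and Pm2 cells, and a difference between populations cannot be told apart from one between driver lines. The labels do not say whether libraries came from separate flies or pools, so p-values measure the spread between these libraries. Because the samples are bulk, fewer cells of a class and less RNA per cell cannot be told apart.

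Adult fly glia fall into classes by position. Astrocyte-like glia send fine processes into the neuropil and take up transmitter, cortex glia enclose neuronal cell bodies, and ensheathing glia border the neuropil. Surface glia form the blood-brain barrier, with an outer perineurial layer and a subperineurial layer sealed by septate junctions. Because the Repo driver marks nearly all of these classes, the levels of class markers describe what the glia libraries hold, and their levels in sorted neurons describe traces.

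Depth ran from 44522117 to 48441795 counts per T4 library and from 51397068 to 57811629 per Pm2 library. Glia libraries held 49893609 to 57631228 counts and neuron libraries 35012892 to 44502669. Levels are counts per 1000000 counts of the scaled library total (CPM), and levels of different genes are compared per kilobase of merged exon (CPM per kb). The cell type label was checked against repo, the glial transcription factor, since another label calls all 12 samples neurons. In glia, repo stood at 3034 to 3852 CPM, against 0.467 to 1.16 in neurons. It reached at most 0.817 CPM in T4 and had no count in Pm2. The neuronal gene elav was not at 0 in glia, with 117 to 164 CPM there and 633 to 649 CPM in neurons. A list of 8 pan-neuronal genes, elav among them, summed to 495 to 559 CPM in glia and 14214 to 14562 CPM in neurons.

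Markers of all 3 classes had counts in the glia libraries, at levels that did not follow class. Per kb of exon, Msr-110 was the highest of the 7 in glia, at 33704 ± 7827 CPM per kb (SD, n = 3). It was followed by alrm at 3815 ± 173 and Cyp4g15 at 732 ± 26.2 CPM per kb. Next came zyd at 118 ± 19.4, moody at 58.1 ± 9.29 and wrapper at 8.70 ± 2.78 CPM per kb, while Mdr65 had no count. No 2 neighbours in this order overlapped in their ranges over the 3 libraries. The surface glia gene moody thus stood between the cortex glia genes zyd and wrapper. Between the 3 cortex glia markers the level per kb ran from 7.09 CPM per kb for the lowest wrapper library to 760.4 CPM per kb for the highest Cyp4g15 library.

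**Figure D1:**
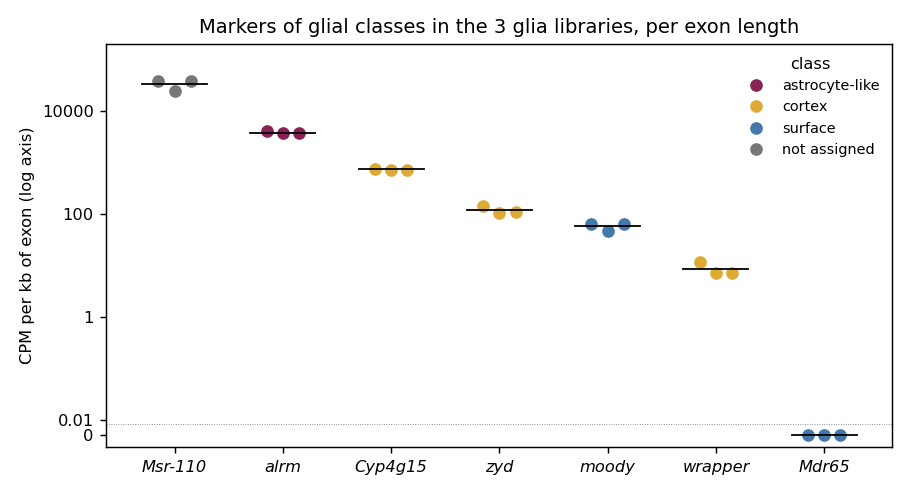
Levels of the 7 marker genes in the 3 glia libraries, as CPM per kb of merged exon on a log axis, with points for libraries coloured by class and bars for means. Msr-110 and alrm stand highest, the 3 cortex glia genes spread over a wide range, and Mdr65 has no count, drawn below the dotted line.

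The markers differed in how much they varied between the glia libraries. Over the 3 glia libraries the coefficient of variation was 4.52% for alrm and 3.58% for Cyp4g15, against a median of 20.1% over 7443 genes with a mean of at least 100 counts there. It was 16.0% for moody, 16.4% for zyd, 23.2% for Msr-110 and 31.9% for wrapper. Glia replicate 1 was the highest for every marker with counts in glia, though by little for moody. Glia replicate 2 was the lowest for wrapper, zyd, moody and Msr-110, and glia replicate 3 for alrm and Cyp4g15. Per kb, alrm stood 5.16 to 5.28 times as high as Cyp4g15 and 58.3 to 79.0 times as high as moody in the 3 glia libraries.

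The astrocyte-like marker alrm encodes a leucine-rich repeat protein and is widely used to drive expression in astrocyte-like glia. It lies at 3R, 25381065 to 25382781 (minus strand, FBgn0039332, BDGP6), as a single exon of 1717 bp. It had 5.41, 3.03 and 5.36 CPM in T4 and 1.24, 1.98 and 0.208 CPM in Pm2. In glia it had 6888, 6425 and 6337 CPM, against 13.5, 14.0 and 16.2 CPM in neurons. No 2 populations overlapped: glia were highest, then neurons, then T4, then Pm2. Glia minus neurons was log2 8.81 ± 0.59 (SE; edgeR adjusted p = 1.59e-07). Pm2 minus neurons was log2 -3.67 ± 0.50 (edgeR adjusted p = 0.000195), and T4 minus neurons was log2 -1.66 ± 0.45 (edgeR adjusted p = 0.0212). The call in T4 was lost without T4 replicate 1, T4 replicate 2 or neurons replicate 3 (adjusted p = 0.0516, 0.0862 and 0.0664, from the same edgeR test).

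The whole of alrm lies inside the span of Fur1, a furin-type protease gene on the same strand (3R, 25347431 to 25473058), and shares no exon with it. Fur1 had 74.4 to 92.2 CPM in T4, 4.89 to 5.64 in Pm2, 96.3 to 129 in glia and 159.9 to 169.9 in neurons. Among the 9 neuronal libraries the populations with more Fur1 thus had more alrm. The order neurons, T4, Pm2 was not particular to alrm. The means of Msr-110, zyd and Cyp4g15 had it too, and those of wrapper and moody did not. For zyd and Cyp4g15 the T4 and Pm2 libraries overlapped. Msr-110 lies inside the span of no other gene. As a percent of the Fur1 level, alrm stood at 3.29 to 7.20% in T4, 3.97 to 35.0% in Pm2 and 8.46 to 9.53% in neurons. In glia it was at least 4904%. The part of Fur1 transcripts in the alrm traces was not tested.

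**Figure D2:**
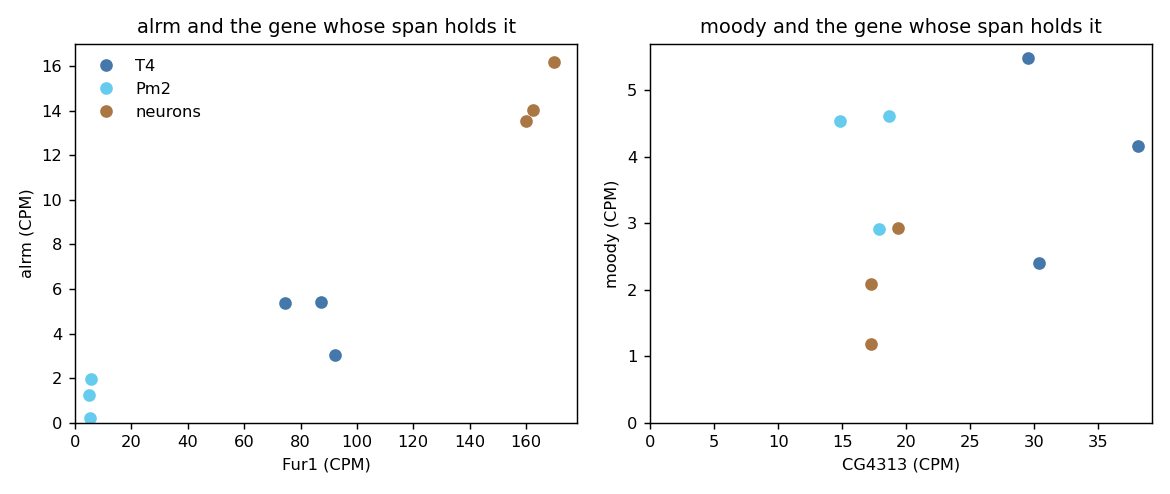
Levels (CPM) of alrm against Fur1 and of moody against CG4313, the gene whose span holds each, with 1 point per library of T4, Pm2 and neurons. The 3 populations are ordered alike for alrm and Fur1, while for moody the T4 and Pm2 libraries overlap although their CG4313 levels, 29.5 to 38.1 CPM in T4 and 14.8 to 18.7 CPM in Pm2, do not.

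Of the cortex glia markers, Cyp4g15 was the most abundant. It encodes a cytochrome P450 (X, 11477058 to 11483233, plus strand, FBgn0030304, BDGP6). It had 0.563, 1.52 and 0.475 CPM in T4 and 1.28, 1.02 and 0.132 CPM in Pm2. In glia it had 2001, 1909 and 1866 CPM, against 0.684, 1.91 and 2.36 CPM in neurons. The T4, Pm2 and neuron libraries overlapped, and all glia libraries lay far above them. Glia minus neurons was log2 10.18 ± 0.76 (edgeR adjusted p = 3.8e-07). Neither T4 minus neurons (log2 -0.97 ± 0.63, edgeR adjusted p = 0.299) nor Pm2 minus neurons (log2 -1.03 ± 0.63, edgeR adjusted p = 0.229) passed the test.

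The gene zyd encodes a potassium-dependent sodium/calcium exchanger that acts in cortex glia (X, 23022898 to 23035550, plus strand, FBgn0265767, BDGP6). It had 15, 0 and 0 counts in T4 and 0, 9 and 1 counts in Pm2. In glia it had 25032, 23722 and 21305 counts, against 57, 186 and 125 counts in neurons. These stand for 521 ± 85.6 CPM in glia and 2.84 ± 1.24 CPM in neurons (SD, n = 3 each). The T4 and Pm2 libraries, at most 0.272 CPM, all lay below the neuron libraries. The gene fell in both types: T4 minus neurons was log2 -4.86 ± 0.80 (edgeR adjusted p = 0.00174) and Pm2 minus neurons was log2 -5.47 ± 0.85 (edgeR adjusted p = 0.000504). Glia minus neurons was log2 7.51 ± 0.66 (edgeR adjusted p = 1.48e-06).

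The gene wrapper encodes an immunoglobulin-domain surface protein used as a cortex glia marker (2R, 22379637 to 22382675, plus strand, FBgn0025878, BDGP6). It had no count in T4, and 5, 0 and 0 counts in Pm2. In glia it had 953, 725 and 617 counts, or 23.5, 14.0 and 14.1 CPM, against 5, 32 and 0 counts in neurons. Neurons replicate 2 held 32 of the 37 neuron counts. With 3 counts over the group as the upper limit for a gene without counts, the glia mean of wrapper was 886-fold above T4. That limit covers counting error only and wrapper passed the filter only through glia, so 886-fold is no bound. Glia minus neurons was log2 5.95 ± 1.28 (edgeR adjusted p = 0.0025). Because wrapper passed the filter only through glia, nothing is read from that p-value. With 3 counts as the upper limit in T4, the neuron mean was 13.9-fold above T4. That mean rests mainly on neurons replicate 2, and neurons replicate 3 had no count, like T4. The libraries of T4 and neurons thus overlapped, and 13.9-fold is no bound. T4 minus neurons was called (edgeR adjusted p = 0.0479). This call was lost in 11 of the 12 fits that left out a library, with adjusted p = 0.188 without neurons replicate 2, from the edgeR test.

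The surface glia markers differed: moody ranked 830 of 16272 genes by mean CPM in glia, and Mdr65 had no count there. The gene moody encodes a G protein-coupled receptor needed for the septate junctions of subperineurial glia (X, 2044292 to 2050120, minus strand, FBgn0025631, BDGP6). It had 2.40, 4.16 and 5.48 CPM in T4 and 4.60, 2.92 and 4.53 CPM in Pm2. In glia it had 251, 186 and 249 CPM, against 1.18, 2.08 and 2.92 CPM in neurons. Glia minus neurons was log2 6.79 ± 0.42 (edgeR adjusted p = 8.34e-08). Of the 6 genes tested, moody was the one whose mean was higher in T4 and in Pm2 than in neurons, but neither difference passed the test. T4 minus neurons was log2 0.95 ± 0.35 (edgeR adjusted p = 0.0746), and Pm2 minus neurons was log2 0.96 ± 0.35 (edgeR adjusted p = 0.0548). Both differences were called with DESeq2 (adjusted p = 0.0307 for T4 and 0.0270 for Pm2) and without neurons replicate 3 (adjusted p = 0.0478 for T4 and 0.0303 for Pm2, from the edgeR test). Without T4 replicate 1 both were also called (edgeR adjusted p = 0.0314 for T4 and 0.0337 for Pm2). That of Pm2 was called as well without T4 replicate 3 or Pm2 replicate 2 (edgeR adjusted p = 0.0471 and 0.0443).

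The moody gene lies inside the span of CG4313, which is on the opposite strand and shares no exon with it. CG4313 had 29.5 to 38.1 CPM in T4, 14.8 to 18.7 in Pm2, 21.3 to 26.7 in glia and 17.2 to 19.3 in neurons. Whether the counting used strand is not stated, and the part of CG4313 transcripts in the moody counts was not tested.

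Mdr65 encodes an ABC transporter of the blood-brain barrier (3L, 6240500 to 6245746, minus strand, FBgn0004513, BDGP6), with 12 merged exons and no overlapping gene. It had no count in the 3 T4, 3 Pm2 and 3 glia libraries, and 9 counts, all in neurons replicate 2. The cortex glia gene spz3 likewise had no count in glia. For counting error only, 3 counts over the 3 glia libraries would be 0.0220 CPM. How the authors' annotation and counting treat these genes is not given in the sources used here, so their 0 describes the table and sets no limit on expression.

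Msr-110 was the most abundant of all 16272 genes in glia (3L, 5566919 to 5577348, minus strand, FBgn0015766, BDGP6). It had 7.08, 7.98 and 5.20 CPM in T4 and 4.57, 3.32 and 1.15 CPM in Pm2. In glia it had 112734, 71669 and 109027 CPM, against 20.8, 24.7 and 24.1 CPM in neurons. No 2 populations overlapped, and the order was that of alrm: glia, neurons, T4, Pm2. Glia minus neurons was log2 12.04 ± 0.56 (edgeR adjusted p = 8.09e-09), the largest of the 6 differences. It fell in both neuron types: T4 minus neurons was log2 -1.78 ± 0.37 (edgeR adjusted p = 0.00604) and Pm2 minus neurons was log2 -2.94 ± 0.39 (edgeR adjusted p = 0.000163). Of its 2902 bp of merged exon, 77 bp are shared with a small noncoding RNA gene on the same strand, and the split of reads there is uncertain.

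**Figure D3:**
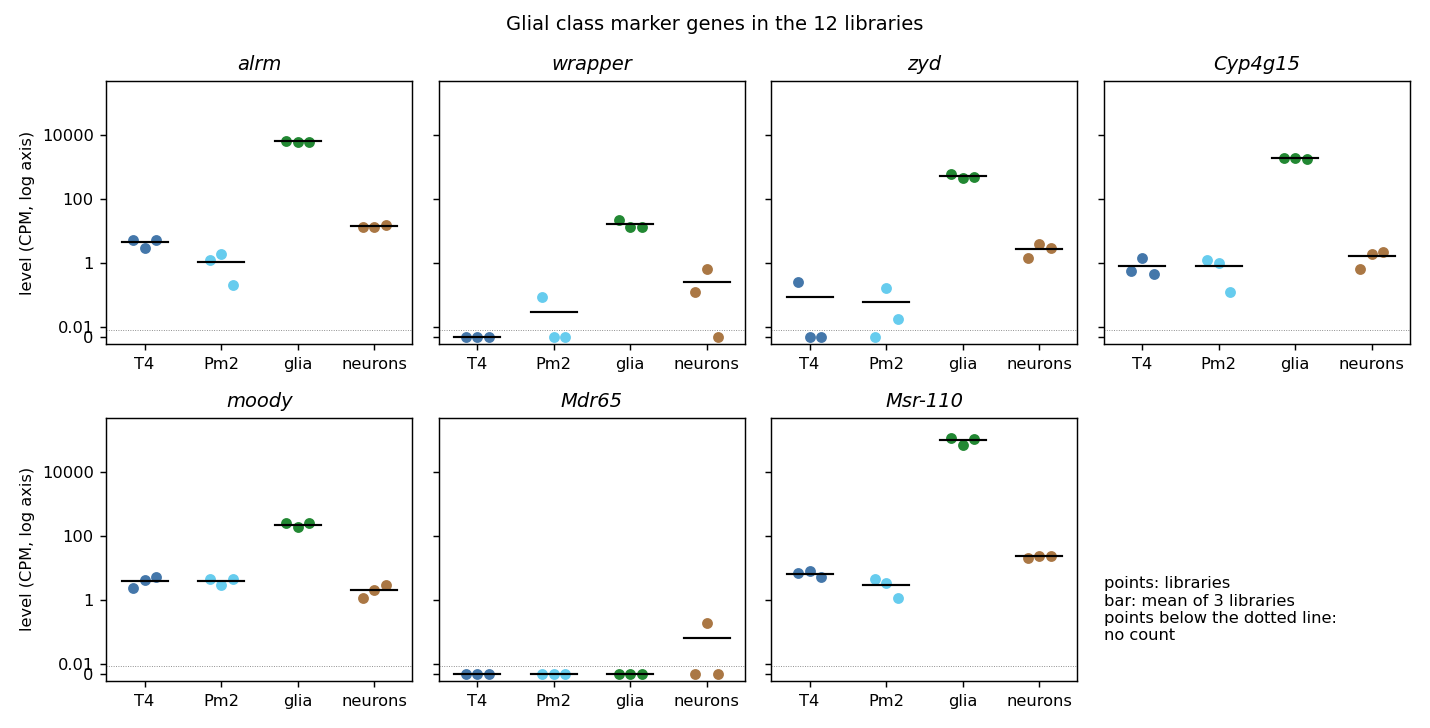
Levels (CPM, log axis) of the 7 marker genes in the 12 libraries, with points for libraries, bars for the mean of 3 libraries and libraries without a count below the dotted line. In every panel but that of Mdr65 the 3 glia libraries lie above all others, and Mdr65 has counts in 1 neuron library only.

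Counted over the list, glia were above neurons for all 6 tested genes, beside 30.9% of all 10528 tested genes called higher and 37.8% called lower in glia. Since the markers are glial genes and 1 passed the filter through glia, nothing further is read from that count. In T4, 4 of the 6 were lower than in neurons (alrm, wrapper, zyd and Msr-110), 0 were higher and 2 were not called, beside 14.5% of all genes called lower and 8.67% called higher. In Pm2, 3 of the 6 were lower than in neurons (alrm, zyd and Msr-110), 0 were higher and 3 were not called, beside 20.1% of all genes called lower and 15.5% called higher. With the counts taken unscaled, 2 were lower and 1 higher in T4, and 1, moody, was higher in Pm2. The comparisons of T4 and of Pm2 with neurons share the 3 neuron libraries.

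T4 was higher than Pm2 for alrm (log2 2.01 ± 0.49, edgeR adjusted p = 0.0076) and Msr-110 (log2 1.16 ± 0.38, edgeR adjusted p = 0.0322), beside 18% of all genes called higher and 18.4% called lower. All 3 T4 libraries lay above all 3 Pm2 libraries for both. For Msr-110 the call was lost without T4 replicate 1, T4 replicate 2 or Pm2 replicate 2 (adjusted p = 0.0743, 0.0984 and 0.0692 in the edgeR test). The other 4 tested genes were not called between T4 and Pm2. All 6 were lower in T4 than in glia and in Pm2 than in glia, among them wrapper, which passed the filter only through glia. Beside them, 32.2% of all genes were called lower and 35.6% higher in T4 against glia, and 32.2% lower and 33.8% higher in Pm2 against glia.

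**Figure D4:**
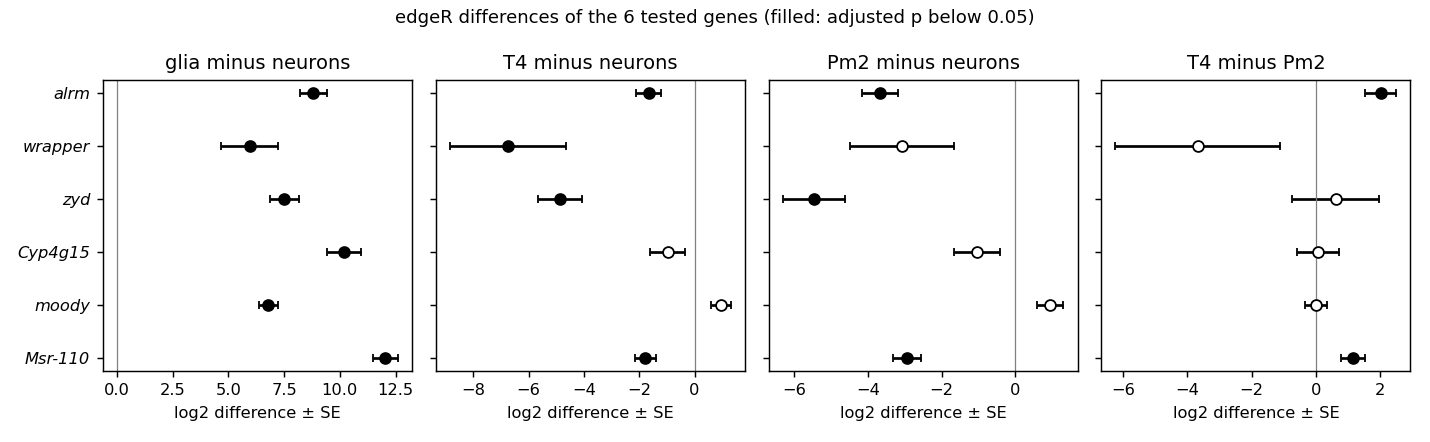
Differences on the log2 scale with their standard errors, for the 6 tested genes in 4 comparisons, with filled points at an edgeR adjusted p below 0.05. Values for wrapper in the comparisons of T4 are fitted against a population without counts and are no bound, and moody lies to the right of 0 in both comparisons with neurons without a call.

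The traces in sorted neurons were not 1 fixed fraction of the glial levels. As a percent of the mean in glia, the levels in neurons were 0.0237 ± 0.0021% for Msr-110, 0.0858 ± 0.0450% for Cyp4g15 and 0.223 ± 0.022% for alrm. They were 0.545 ± 0.238% for zyd, 0.902 ± 0.381% for moody and 1.57 ± 2.09% for wrapper (SD over 3 neuron libraries). In neurons the percentages of Msr-110 and alrm thus differed by far more than the spread between libraries, while that of wrapper was 0.382% without neurons replicate 2 and 2.36% without neurons replicate 3. In T4 the range was from 0.00690 ± 0.00145% for Msr-110 to 1.75 ± 0.68% for moody, with alrm at 0.0703 ± 0.0207% and Cyp4g15 at 0.0442 ± 0.0300%. Without T4 replicate 2, Cyp4g15 stood at 0.0269% in T4. In Pm2 it was from 0.00308 ± 0.00177% for Msr-110 to 1.76 ± 0.42% for moody, with alrm at 0.0174 ± 0.0136% and Cyp4g15 at 0.0420 ± 0.0311%. Without Pm2 replicate 2, alrm stood at 0.0110% in Pm2.

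The proportions between markers within a library differed accordingly. Per kb, the level of Msr-110 over that of alrm was 0.574 to 1.56 in T4, 0.994 to 3.28 in Pm2, 6.60 to 10.2 in glia and 0.879 to 1.04 in neurons. The level per kb of alrm over that of moody was 1.67 to 5.18 in T4, 0.105 to 1.55 in Pm2, 58.3 to 79.0 in glia and 12.7 to 26.2 in neurons. The level of alrm over that of Cyp4g15 per kb was 3.07 to 17.3 in T4, 1.49 to 2.98 in Pm2, 5.16 to 5.28 in glia and 10.5 to 30.3 in neurons. The glia libraries lay apart from the other 9 in the first pair of ratios. Ranked per kb, the trace order was alrm, then Msr-110, in neurons and in T4, with overlapping libraries, and Msr-110 and moody stood highest in Pm2, also with overlapping libraries.

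**Figure D5:**
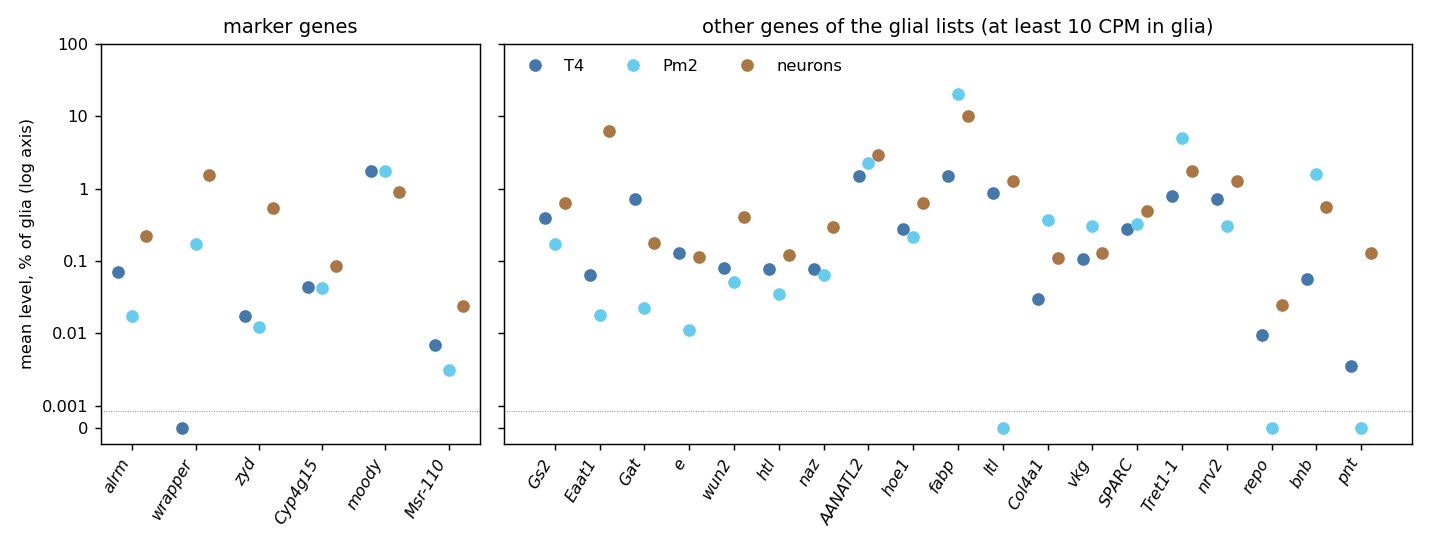
Mean levels in T4, Pm2 and neurons as a percent of the mean in glia, on a log axis, for the 6 marker genes with counts in glia and for other genes of the astrocyte-like, cortex, perineurial and pan-glial lists. The percentages span several powers of 10 within each population, and Eaat1 in neurons lies at 6.26%.

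Other genes of the same classes were taken from lists of class markers. All 8 astrocyte-like glia genes were higher in glia than in neurons, beside 30.9% of all genes called higher. Their median was log2 8.17, beside a median of -0.17 over all genes. They include Gs2, glutamine synthetase, at 9922 to 12389 CPM in glia and 62.3 to 77.3 CPM in neurons. Eaat1, the glial glutamate transporter, stood at 7624 to 7921 CPM in glia and 353 to 626 CPM in neurons. Gat, the GABA transporter, stood at 5763 to 8038 CPM in glia and 11.3 to 13.8 CPM in neurons.

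In the neuron types these astrocyte-like genes did not all go the way of alrm. In T4, 2 of 8 were lower than in neurons and 1 was higher, beside 14.5% of all genes called lower and 8.67% called higher. Nothing about the list is read from those counts, and its median was log2 -0.83, beside -0.06 over all genes. The higher one was Gat, at 43.9 to 55.6 CPM in T4 and 11.3 to 13.8 CPM in neurons (log2 2.01 ± 0.35, edgeR adjusted p = 0.0023). One of the lower ones was Eaat1, at 3.86 to 5.69 CPM in T4 and 353 to 626 CPM in neurons (log2 -6.61 ± 0.44). In Pm2, 5 of 8 were lower than in neurons and 0 higher, beside 20.1% of all genes called lower and 15.5% called higher. The median of the 8 there was log2 -2.59, beside -0.08 over all genes. Between T4 and Pm2, 4 of 8 were higher in T4 and 0 lower, beside 18% of all genes called higher and 18.4% called lower. Gat was higher in T4 than in Pm2 by log2 4.99.

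Of the other cortex glia genes, 3 of 4 could be tested. All 3 were higher in glia than in neurons, beside 30.9% of all genes called higher, and their median was log2 6.26. Of these, ltl passed the filter only through glia, and the median of the other 2 was log2 5.30. The most abundant was hoe1, at 952 to 1264 CPM in glia and 4.98 to 8.23 CPM in neurons. Next came fabp, a fatty acid binding protein gene, at 13.8 to 22.2 CPM in glia and 1.67 to 1.78 CPM in neurons, and ltl at 7.76 to 19.6 CPM in glia and 0.0526 to 0.344 CPM in neurons. In T4, 0 of the 3 were higher and 1 lower than in neurons, beside 8.67% of all genes called higher and 14.5% lower. The lower one was fabp, at 0.237 to 0.267 CPM in T4 (log2 -2.75, edgeR adjusted p = 0.000115). In Pm2, 1 was higher and 1 lower than in neurons, beside 15.5% of all genes called higher and 20.1% lower. The higher one was fabp, at 2.94 to 3.70 CPM in Pm2 (log2 0.99, edgeR adjusted p = 0.0142), and the lower one was hoe1, at 1.31 to 3.98 CPM in Pm2 (log2 -1.54, edgeR adjusted p = 0.0158).

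Among 14 genes of subperineurial glia, moody signalling and septate junctions, 3 were higher and 4 lower in glia than in neurons, with a median of log2 0.52, beside 30.9% of all tested genes called higher and 37.8% lower. Nothing about the list is read from those counts. Gli and Mdr50 passed the filter only through glia, and the median of the other 12 was log2 0.07. By library totals alone 6 were lower, Nrx-IV and sinu joining (edgeR adjusted p = 0.00175 and 0.0325). The higher ones were cora, a septate junction gene, at 497 to 628 CPM in glia and 99.4 to 111 CPM in neurons, Galphai at 245 to 305 CPM in glia and 0.263 to 0.787 CPM in neurons, and loco at 195 to 242 CPM in glia and 6.96 to 8.95 CPM in neurons. Galphai encodes a G protein subunit and loco a regulator of G protein signalling, both known to act with moody in the barrier. The junction gene Gli was low, at 0 to 3.73 CPM in glia and 0.0737 to 0.276 CPM in neurons, and was not called (edgeR adjusted p = 0.151). The G protein genes Ggamma1 and Galphao were among the lower ones, Ggamma1 at 281 to 336 CPM in glia and 3106 to 3204 CPM in neurons.

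Of 6 perineurial genes, 5 were higher and 1 lower in glia than in neurons, beside 30.9% of all genes called higher and 37.8% lower. The median of the 6 was log2 6.75. CG4797, among the 5, passed the filter only through glia, and the median of the other 5 genes was log2 7.68. The collagen IV genes Col4a1 and vkg stood at 855 to 1799 and at 722 to 1747 CPM in glia, against 0.737 to 1.97 and 0.684 to 2.91 CPM in neurons. SPARC, which encodes a collagen-binding matrix protein, stood at 791 to 1092 CPM in glia and 3.46 to 5.55 CPM in neurons. Against neurons, 2 of the 6 were higher in Pm2 and 0 lower, beside 15.5% of all genes called higher and 20.1% lower. One was Col4a1, at 3.11 to 6.59 CPM in Pm2 (log2 1.75 ± 0.54, edgeR adjusted p = 0.0261). None was called in T4 against neurons. T4 was lower than Pm2 for 3 of the 6, CG4797 among them (edgeR adjusted p = 0.0496), and higher for 0, beside 18.4% and 18% of all genes. Collagen IV is also made by haemocytes and fat body. Of the haemocyte markers, He and eater had no count in any library, and NimC1 had 0 to 12.9 CPM in glia and at most 0.0424 CPM in neurons. The 6 haemocyte markers together had 0.135 to 21.2 CPM in glia and 0.684 to 2.14 CPM in neurons. The 4 fat body markers together had at most 0.0683 CPM in glia and 0.149 CPM in neurons.

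Of 3 ensheathing glia genes, 2 were higher in glia than in neurons, beside 30.9% of all genes called higher and 37.8% lower. The median of the 3 was log2 1.47. The engulfment receptor gene drpr stood at 567 to 691 CPM in glia and 213 to 246 CPM in neurons, and CG9657 at 258 to 600 CPM in glia and 1.66 to 9.82 CPM in neurons. Eaat2, a transporter gene, stood at 109 to 250 CPM in glia and 179 to 209 CPM in neurons and was not called (edgeR adjusted p = 0.989). The pan-glial list has 5 genes, and the 4 that could be tested were all higher in glia than in neurons, led by nrv2 at 4720 to 8290 CPM in glia and 70.5 to 92.0 CPM in neurons. The one not tested was gcm, a regulator of glial fate in the embryo, at 0 to 0.0911 CPM in glia. Against neurons, 3 of the 4 pan-glial genes tested were lower in Pm2 and 1 higher, beside 20.1% of all genes called lower and 15.5% higher. The higher one was bnb, at 23.3 to 23.7 CPM in Pm2 and 2.63 to 13.8 CPM in neurons (edgeR adjusted p = 0.017). T4 had 3 of the 4 lower, bnb among them, and 0 higher, beside 14.5% and 8.67% of all genes. Each of 8 pan-neuronal genes was lower in glia, and together they summed to 495 to 559 CPM in glia and 14214 to 14562 CPM in neurons.

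Markers of other cells were measured in the same way. Photoreceptor markers were led by norpA, at a mean of 728 CPM in T4, 462 in Pm2, 315 in glia and 492 in neurons. It made up nearly all of the list in T4, with 699 to 771 CPM where the 9 markers together had 703 to 780 CPM. Rh5 was next, at a mean of 7.24 CPM in T4, 4.12 in Pm2, 1.91 in glia and 5.84 in neurons. Rh4 followed at a mean of 0.184 CPM in T4. The marker ninaE had a mean of 3.22 CPM in glia and no count in T4 and Pm2, and trp and chp had no count in glia. The 5 muscle markers together had 0.287 to 15.9 CPM in T4, at most 0.0755 in Pm2, 6.92 to 18.0 in glia and 1.58 to 2.95 in neurons. Act88F alone ranged from 0 to 11.1 CPM in T4, at a mean of 3.72 ± 6.42 CPM (SD, n = 3), so nearly all of it came from 1 library. The 3 trachea markers together had 11.1 to 14.0 CPM in Pm2, 42.6 to 59.3 CPM in glia and 0.105 to 1.10 CPM in neurons. In glia the sum came mostly from serp, at a mean of 50.3 CPM. In Pm2 it came mostly from serp at a mean of 9.22 CPM and verm at 3.15 CPM. In T4 serp had a mean of 0.528 CPM, and verm and btl had no count. The marker btl did not share the order of the sum. Its mean was 0.0497 CPM in Pm2, 0.230 in glia and 0.278 in neurons, with overlapping libraries in glia and neurons. The part of such cells in the results was not tested.

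The genes whose profiles were most like those of the markers were found as the 2 with the smallest root-mean-square difference of centred log2 levels over the 12 libraries, among 7437 genes. For alrm these were CG9394 (0.524) and vir-1 (0.636), for wrapper CR45018 (0.531) and mth (0.534), and for zyd Cyp12e1 (0.707) and CG31869 (0.801). For Cyp4g15 they were wgn (0.759) and Ptr (0.779), for moody CG34220 (0.369) and dsx (0.471), and for Msr-110 CG31705 (0.768) and repo (0.777). Between the markers themselves the smallest value was 1.18, for alrm and zyd, and the largest 3.61, for moody and Msr-110. The 2 cortex glia genes zyd and Cyp4g15 lay 1.59 apart, farther than each from alrm (1.18 and 1.21). Both zyd and wrapper had at most 15 counts in any T4 or Pm2 library, so their distances depend in part on the 0.1 CPM added to each level.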

How the data were processed

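Full-length cDNA (SMART-Seq v4), made from total RNA of sorted cells, was the input of Nextera XT libraries, which were read from both ends for 100 bases, per the labels' protocols. The submitters' processing notes name Trimmomatic 0.32, STAR 2.5.2, HTSeq 0.6.1 and the BDGP6 build. The authors deposited 1 table of whole-number counts per gene; its name calls the values normalized, and how is not given in the sources used here. Column totals differed and every value from 1 to 20 occurred in each column, so the values were analysed as counts; an unscaled alternative was run. Columns named for the Elav driver carry other numbers than the sample titles, so neuron replicate numbers are column numbers.

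The test took in the 10528 genes that reached 10 counts in 3 or more of the 12 libraries. All libraries were fitted together in edgeR 4.0.16 under R 4.3.3 (group means, TMM scaling, quasi-likelihood F test, two-sided), with Benjamini-Hochberg adjustment over all tested genes and calls below 0.05. Standard errors come from the difference and its F value. The fit was tested on simulated data with smaller changes, in fewer genes, than glia minus neurons showed here. That test does not cover differences as large as those of the markers or populations without counts. Replicates varied beyond counting error (chi-square per degree of freedom 18.6 to 309). Exon lengths and coordinates come from the Ensembl annotation of BDGP6; 4 of 75 list genes were matched by synonym. Profile likeness used log2(CPM + 0.1) and genes with a mean of at least 100 counts in glia. The markers, lists and naming rules were chosen with earlier results of these data known. All 7 markers are named, with up to 3 genes of each list, those highest in glia or in the population where the list is highest, and 2 nearest profiles per marker; spz3, Galphao, Gli, Ggamma1, Nrx-IV, sinu, Mdr50, CG4797, gcm, ninaE, trp, chp, He, eater and the genes holding or overlapping a marker were named after their values were seen. Alternatives were other scalings, filters, DESeq2 1.42.0, limma 3.58.1 (log2 CPM), fewer libraries and a replicate block. List counts under other scalings, and without genes that passed the filter only through glia, were added after seeing the data. Lanes held 3 libraries each, and which shared one is not stated.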

Additional observations from a re-analysis of the deposited data

Results flagged for a closer look

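The differences of T4 and Pm2 from the same neuron libraries were themselves different for 2 of the marker genes, by the test of T4 minus Pm2. For alrm that difference was log2 2.01 (edgeR adjusted p = 0.0076), with all 3 T4 libraries above all 3 Pm2 libraries, while Fur1, whose span holds alrm, stood at 74.4 to 92.2 CPM in T4 and 4.89 to 5.64 CPM in Pm2. For Msr-110 it was log2 1.16 (edgeR adjusted p = 0.0322), again with all 3 T4 libraries above all 3 Pm2 libraries. Pm2 replicate 3 had the lowest value of both genes, 0.208 CPM for alrm and 1.15 CPM for Msr-110.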

How the results depend on the processing

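For glia minus neurons, T4 minus glia and Pm2 minus glia, all refitted differences of the 6 tested genes kept their direction and their call (120, 126 and 126 refits). Since the 6 are glial genes and 1 of them, wrapper, passed the filter only through glia, no support is read from these refits. The calls near the threshold moved. With unscaled counts, T4 minus neurons called 1 marker higher and 2 lower and 1730 genes higher and 902 lower (913 and 1531 with TMM scaling), Pm2 minus neurons called 1 marker higher and 2673 genes higher and 1355 lower (1637 and 2112 with TMM scaling), and T4 minus Pm2 called 1 marker higher. Library totals alone gave 2399 higher and 1528 lower for T4 minus Pm2 (1896 and 1940 with TMM scaling). Without scaling the median over all genes moved by 0.28 for T4 minus neurons and 0.35 for Pm2 minus neurons, and with library totals by -0.35 for glia minus neurons.

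With only the 6 libraries compared, T4 minus neurons called 1585 genes higher and T4 minus Pm2 called 1 marker higher. DESeq2 called 1 marker, moody, higher in T4 and in Pm2 than in neurons, and limma-trend called 2 markers lower in T4. The call of alrm for T4 minus neurons was lost unscaled (adjusted p = 0.0564) and with limma-trend (0.0504), and that of Msr-110 for T4 minus Pm2 unscaled (0.0508) and with the 6 libraries alone (0.0511). Library totals alone moved the percent of the glial level to 0.0941% for alrm in T4, 0.284% for alrm in neurons, 0.00929% for Msr-110 in T4 and 0.0305% for Msr-110 in neurons. T4 minus Pm2 changed sign, without a call, for moody under median-of-ratios scaling (0.0201), library totals (0.156), the filter at 100 counts (0.0057), the 6 libraries alone (0.00234) and DESeq2 (0.0214), and for Cyp4g15 unscaled (-0.03). The cause was not tested.

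Leaving out single libraries gave 0 to 1 markers higher and 2 to 3 lower and 570 to 1239 genes higher for T4 minus neurons, 0 to 1 markers higher for Pm2 minus neurons and 1 to 2 for T4 minus Pm2, and 0.0209% to 0.0257% of the glial level for Msr-110 in neurons, 0.0110% to 0.0245% for alrm in Pm2, 0.0269% to 0.0540% for Cyp4g15 in T4 and 0.382% to 2.36% for wrapper in neurons. In the same refits T4 minus Pm2 ran from -4.20 to 0 for wrapper, -4.62 to 3.07 for zyd, -0.64 to 0.56 for Cyp4g15 and -0.29 to 0.28 for moody. Same-numbered libraries of T4, Pm2 and glia did not deviate together (correlations -0.0331 to 0.0237; best partner of the same number in 2 of 18 cases). With the replicate block, fitted on only the 6 libraries compared, 2 markers were higher for T4 minus Pm2. In each of T4 and Pm2 minus glia, 6 were lower. These counts equal those of the fit of all 12 libraries. The same 6 libraries without the block called 1 marker higher for T4 minus Pm2, with Msr-110 at edgeR adjusted p = 0.0511. They also called 6 lower in each comparison with glia. Against the fit of all 12 libraries, the block fits moved the counts of all genes by less than 1.5 times. Values for wrapper in T4 and Pm2 and zyd in T4 and Pm2 rest on at most 15 counts, so their differences are limited by depth.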
